A study of Homo sapiens with 4 samples.

Results

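The genes described here are 8 components of the apoptotic cell death machinery in U251 cells: the death receptors FAS and TNFRSF10B, the adaptor FADD, the kinase RIPK1, the apoptosome scaffold APAF1, and the caspases CASP8, CASP9 and CASP6. They were taken from the count table by symbol, from a set named with earlier results of these data known, and are 8 of its 15575 genes. U251 is an established human glioblastoma (GBM) cell line. Bulk RNA-seq was done in 2 groups of 2 libraries each, 72 h after lentiviral transduction. Ctrl cells received the control shRNA construct, which the labels call pGreen, and PRMT3-KD cells received an shRNA against PRMT3, a protein arginine methyltransferase. Both groups are therefore transduced cells of 1 line, and which PRMT3 shRNA gave these libraries is not given in the sources used here. Nothing in the labels says that the 2 libraries of a group came from separate cultures, so p-values measure the spread between these libraries, which may be technical.

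Apoptosis can start at the cell surface or at the mitochondria. At the surface, FAS binds the FAS ligand and TNFRSF10B (DR5) binds TRAIL. Both recruit FADD through their death domains, and FADD brings in pro-CASP8, which is activated in this complex. RIPK1 is a kinase of the TNF receptor pathway that takes part in survival signalling, in CASP8-dependent apoptosis and in necroptosis. In the mitochondrial pathway, cytochrome c binds APAF1, which assembles into the apoptosome and activates CASP9. Initiator caspases then cleave effector caspases such as CASP6. Caspases are made as inactive precursors, so their mRNA level is not a measure of their activity. FAS, TNFRSF10B and APAF1 are known targets of p53, and U251 carries a mutant p53.

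The knockdown was seen in both PRMT3-KD libraries. PRMT3 had 535 counts in each Ctrl library, but 77 and 45 after knockdown, a log2 fold change of -3.08 (edgeR adjusted p = 0.0177). Total counts ranged from 24804250 to 29756313 per library. The 2 Ctrl libraries differed little more than counting error allows, with a chi-square per degree of freedom of 1.42 across genes, while the 2 PRMT3-KD libraries differed from each other by 63.6. Of the 10 glioma line markers, VIM, NES, SOX2, CD44, EGFR and SLC1A3 were detected and not called, and SOX9 was called lower (log2 fold change -0.65, edgeR adjusted p = 0.0215). S100B was low, at 2.08 CPM in Ctrl and 2.37 in PRMT3-KD, and CHI3L1 had 0 to 2 counts per library. GFAP had a mean of 13.7 CPM (counts scaled to the TMM-normalized library total) in Ctrl and 3.32 in PRMT3-KD (edgeR adjusted p = 0.0958). The PRMT3-KD libraries differed for GFAP, at 1.26 and 5.39 CPM, so its PRMT3-KD mean depends on both. Of the markers of other cell types, PTPRC (leukocytes) had 2 to 7 counts and CDH1 (epithelium) 0 to 4 counts per library, while CD68, a lysosomal protein abundant in macrophages, had 665 to 845. The endothelial marker CDH5 had 129 to 146 counts in 3 libraries and 722 in PRMT3-KD library 2, VWF had 30 to 70, and the neuronal marker SNAP25 had 78 to 127. CD68 and CDH5 were not called (edgeR adjusted p = 0.114 and 0.221).

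All 8 genes passed the filter on low counts. With edgeR's quasi-likelihood test and an adjusted p under 0.05, FAS was higher in PRMT3-KD, RIPK1 and APAF1 were lower, and the other 5 did not pass. That is 1 of 8 higher, where 8.39% of the 13172 genes tested were higher, and 2 of 8 lower, where 8.91% were lower. In either direction 3 of 8 passed, against 17.3% of all genes tested. The median log2 fold change over the 8 genes was -0.04, against 0.01 over all genes tested. Only FAS changed by over 1.5-fold. The 8 genes did not move in 1 direction: 4 fitted changes were above 0 and 4 below. Without either Ctrl library, when the spread comes from the PRMT3-KD pair alone, 0 of the 8 were called. At an unadjusted edgeR p under 0.05 there was 1 of the 8 in these fits, against 13.7% and 13.9% of all genes. Without either PRMT3-KD library, when the spread comes from the Ctrl pair alone, 6 of the 8 were called, near the 65.9% and 65.6% of all genes called in those fits. Without a Ctrl library the log2 fold changes of the 3 called genes were 0.78 and 0.86 (FAS), -0.41 and -0.41 (RIPK1), and -0.43 and -0.42 (APAF1). Those of FADD, CASP6 and CASP8 moved by over 1.5 times in at least 1 of these fits, to -0.10 for FADD, -0.09 for CASP6, and 0.13 and -0.01 for CASP8.

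Library by library, the 8 genes fell into 3 kinds. In 3 genes (FAS, TNFRSF10B and CASP9) both PRMT3-KD libraries lay above both Ctrl libraries, as they did for 33.3% of all genes tested. In another 3 (FADD, RIPK1 and APAF1) both lay below, as for 33.8% of all genes. CASP6 and CASP8 overlapped between the groups. Each count of 3 of 8 is near its background.

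**Figure D1:**
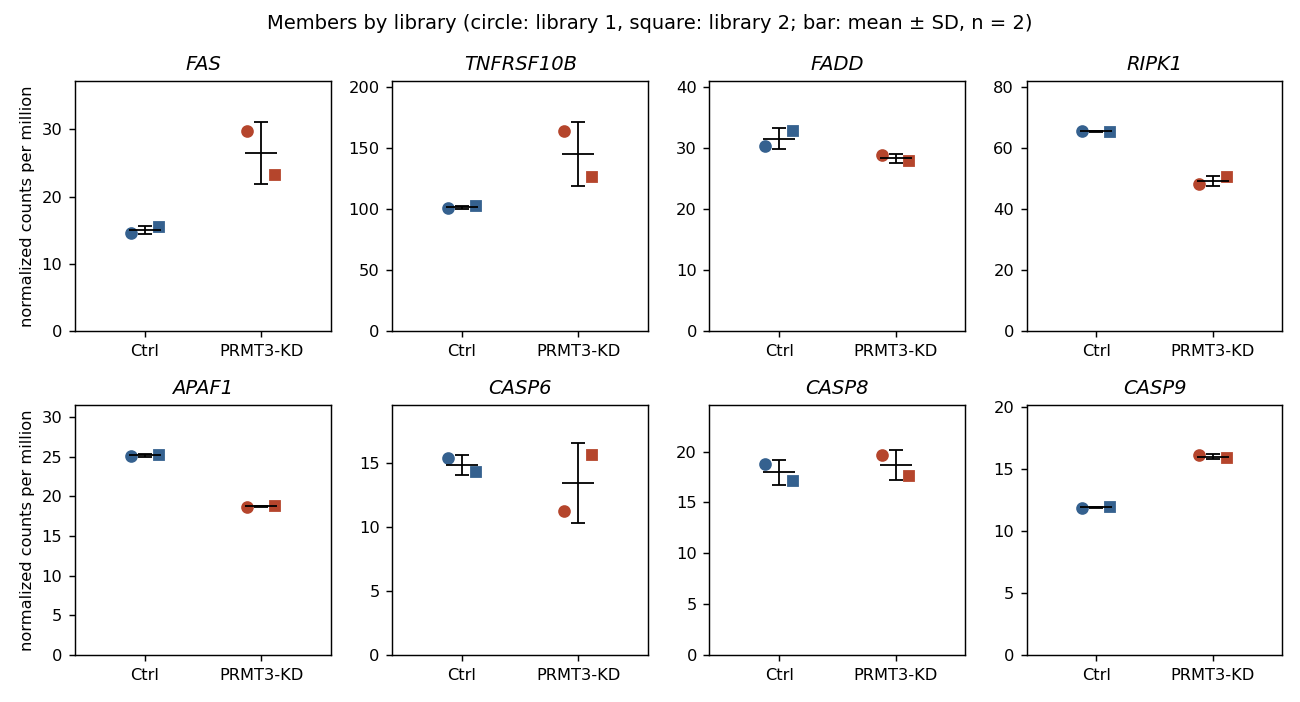
Normalized CPM of each of the 8 genes in the 2 Ctrl libraries (blue) and the 2 PRMT3-KD libraries (red), with the mean ± SD (n = 2), each axis starting at 0. FAS was at 14.6 and 15.5 in Ctrl and at 29.7 and 23.2 in PRMT3-KD, while APAF1 was at 25.1 and 25.3 against 18.7 and 18.8.

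The genes lie on 8 different chromosomes, so no 2 of them are neighbours. On GRCh37 (hg19), the build of the deposited table, with the gene models of GENCODE, FAS lies at chr10:90750414-90775542 and FADD at chr11:70049402-70053496. RIPK1 lies at chr6:3064058-3115421, APAF1 at chr12:99039068-99129211 and CASP8 at chr2:202098166-202226559, like FAS and FADD on the forward strand. On the reverse strand lie TNFRSF10B at chr8:22877646-22926544, CASP6 at chr4:110609778-110624739 and CASP9 at chr1:15817327-15853029. Their main transcripts hold from 2 exons (FADD) to 27 (APAF1) and are from 1634 bases (CASP6) to 7201 bases (APAF1) long.

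Levels of different genes were compared per kb of transcript, using the length of the main transcript of each gene. In Ctrl cells the order of mean level, in normalized CPM per kb, was TNFRSF10B (25.4), FADD (18.5), RIPK1 (16.0), CASP6 (9.09), CASP8 (6.75), FAS (5.86), CASP9 (4.24) and APAF1 (3.50). No 2 neighbours in this order overlapped between the Ctrl libraries, although with 2 libraries this is no test. Thus TNFRSF10B was the most and APAF1 the least abundant of the 8 mRNAs per length. In PRMT3-KD cells both ends kept their places, with means of 36.4 for TNFRSF10B and 2.61 for APAF1, while FAS moved from the sixth to the fourth place with 10.3. Its PRMT3-KD range of 9.06 to 11.6 overlapped that of CASP6 (6.89 to 9.59), and the CASP6 range overlapped that of CASP8 (6.62 to 7.40). These levels depend on the transcript model chosen, which need not be the one behind the counts. The main transcript was the one marked canonical in GENCODE. FAS had no such mark, so a principal transcript kept from an older GENCODE version was used for it. The length, place, 3′ UTR and main-transcript overlaps of FAS therefore rest on another rule than those of the other members.

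**Figure D2:**
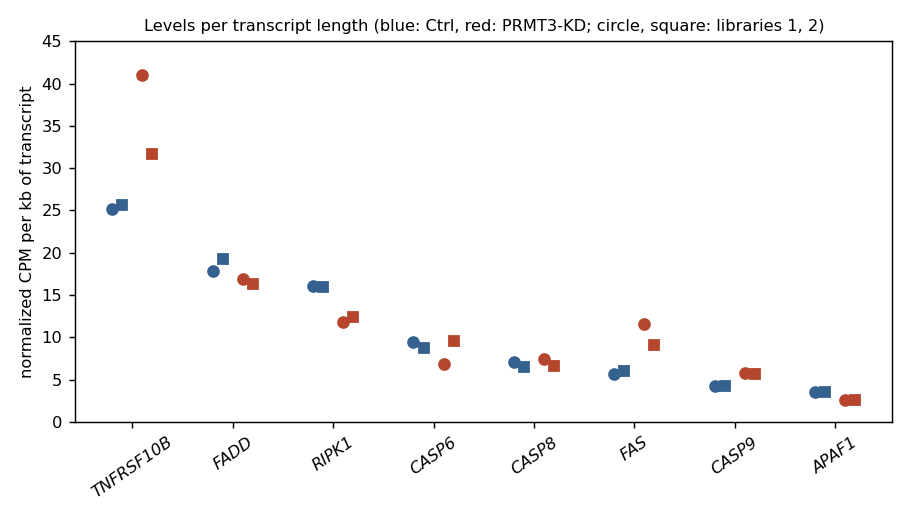
Normalized CPM per kb of the main transcript for each gene, in order of the Ctrl mean, with 1 point per library (blue, Ctrl; red, PRMT3-KD). TNFRSF10B was at the top in both groups (means 25.4 and 36.4), and FAS moved past CASP8 and CASP6 in PRMT3-KD (mean 10.3).

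FAS, the receptor of the FAS ligand, was the gene with the largest change of the 8. Its counts were 404 and 425 in Ctrl, and 755 and 660 in PRMT3-KD. On the normalized scale this was 14.6 and 15.5 CPM in Ctrl and 29.7 and 23.2 CPM in PRMT3-KD. Both PRMT3-KD libraries were above both Ctrl libraries, and the first was the higher. FAS rose by 0.82 on the log2 scale (SE 0.153, 95% interval 0.41 to 1.23, edgeR adjusted p = 0.0365), which is 1.76-fold. In bulk RNA, a higher level in each cell and a larger share of cells with the transcript cannot be told apart. FAS no longer passed when counts were scaled by library totals alone (adjusted p = 0.0594), and over all 12 alternatives its adjusted p ranged from 3.61e-10 to 0.291.

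The 250 bases just before the first RefSeq start of FAS are shown because FAS was the 1 gene of the 8 called higher. They cover chr10:88990548-88990797 on GRCh38.p14, forward strand, and capitals mark the GC box letters GGGCGG (searched on both strands, overlapping matches counted), a motif bound by Sp1 family factors.
FAS promoter: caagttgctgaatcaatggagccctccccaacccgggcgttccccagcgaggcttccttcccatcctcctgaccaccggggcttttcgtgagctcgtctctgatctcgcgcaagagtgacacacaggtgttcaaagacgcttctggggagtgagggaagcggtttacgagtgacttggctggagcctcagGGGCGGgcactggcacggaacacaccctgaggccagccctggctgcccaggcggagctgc
Its GC content was 62.8%, against a median of 58.0% over 27305 promoters. The window holds 1 GC box, which 42.3% of all promoters hold. The other motifs searched on both strands were the TATA box, spelled TATAAA, the CCAAT box, spelled as named, the core of the hypoxia response element, ACGTG, and the cAMP response element, TGACGTCA. The FAS window does not hold any of them, and the last, which 1.77% of promoters hold, is in none of the 7 windows read here.

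The start of FAS overlaps ACTA2, the smooth muscle actin gene, which lies on the opposite strand. Their exons share 380 bases when all annotated transcripts are counted and 0 bases between the main transcripts. The counting is not stated to use strand, so reads from the shared bases cannot be assigned to either gene. ACTA2 had 623 and 664 counts in Ctrl and 1364 and 4663 in PRMT3-KD (log2 fold change 2.22, edgeR adjusted p = 0.0624, not past the threshold). The 2 genes differed in which PRMT3-KD library was the higher. Relative to the Ctrl mean, ACTA2 was higher by 1.20 and 2.82 on the log2 scale in PRMT3-KD libraries 1 and 2, and FAS by 0.98 and 0.63. FAS counts per ACTA2 count were 0.648 and 0.640 in Ctrl, and 0.553 and 0.141 in PRMT3-KD. Thus the library with by far the most ACTA2 had the smaller FAS value of the PRMT3-KD pair. TAGLN and CNN1, other smooth muscle genes, were called higher. TAGLN rose by 2.09 on the log2 scale (edgeR adjusted p = 0.0142) and CNN1 by 2.82 (edgeR adjusted p = 0.0290). MYH11, smooth muscle myosin, had 4 and 8 counts in Ctrl and 9 and 5 in PRMT3-KD, too few to be tested. FAS shares another 917 exon bases, 250 of them between main transcripts, with an lncRNA gene on the opposite strand, which was not analysed here. The part of shared reads in the FAS result was not tested.

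The genes whose 4 values lay nearest to those of FAS were MAP3K9, WASL, NEDD4L, ADAMTS12 and FNDC3A. Likeness was measured as the Euclidean distance of the log2 CPM values, centred on the Ctrl mean, over 4 libraries. The distance was smallest for MAP3K9 (0.0330) and was 0.0762 for FNDC3A. MAP3K9, a kinase upstream of JNK, had 18.8 and 19.3 CPM in Ctrl and 37.7 and 29.3 CPM in PRMT3-KD, like FAS with the first PRMT3-KD library the higher. None of the 5 is in the list of death receptor and caspase genes, which covers only 43 of the 13172 genes tested. The 5 were chosen by their likeness to FAS, so the shared pattern is not a separate result.

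TNFRSF10B, the TRAIL receptor DR5, had the highest level of the 8 genes. It was at 101 and 103 CPM in Ctrl, and at 164 and 127 CPM in PRMT3-KD. The groups did not overlap, and again PRMT3-KD library 1 was the higher. The log2 fold change was 0.52 (SE 0.142, 95% interval 0.14 to 0.90), and it did not pass (edgeR adjusted p = 0.0733). It was 0.32 without PRMT3-KD library 1 and 0.69 without library 2. With DESeq2 and with limma-voom it did pass, with adjusted p = 0.0194 and 0.0171, and over all 12 alternatives the adjusted p ranged from 8.53e-13 to 0.421. The exons of TNFRSF10B share 377 bases, 67 of them between main transcripts, with RHOBTB2 on the opposite strand, whose log2 fold change was 0.04.

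**Figure D3:**
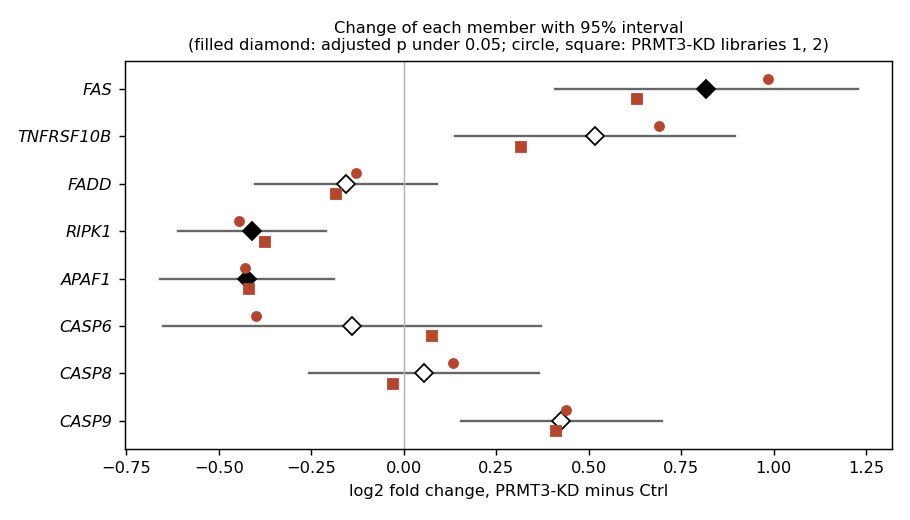
Log2 fold change of PRMT3-KD against Ctrl for each gene (diamond; filled where the adjusted p was under 0.05) with its 95% interval, and the values of the 2 PRMT3-KD libraries against the Ctrl mean (circle, library 1; square, library 2). The intervals of FAS (0.41 to 1.23), RIPK1 (-0.61 to -0.21), APAF1 (-0.66 to -0.19), TNFRSF10B (0.14 to 0.90) and CASP9 (0.15 to 0.70) do not include 0, and only the first 3 of these genes passed the adjusted threshold.

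FADD, the adaptor shared by both receptors, was not called. It was at 30.4 and 32.8 CPM in Ctrl, and at 28.9 and 27.8 CPM in PRMT3-KD. Both PRMT3-KD values were lower than both Ctrl values, but the gap between the groups was smaller than that between the 2 Ctrl libraries. The log2 fold change was -0.16 (95% interval -0.40 to 0.09, edgeR adjusted p = 0.288). FADD shares 1011 exon bases, 976 of them between main transcripts, with an lncRNA gene on the opposite strand, which was not analysed here.

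RIPK1, the death domain kinase, had the smallest SE of the 8 genes. It was at 65.6 and 65.4 CPM in Ctrl, and at 48.1 and 50.5 CPM in PRMT3-KD. The Ctrl libraries were nearly the same, and both PRMT3-KD libraries lay well below them. RIPK1 fell by 0.41 on the log2 scale (SE 0.0750, 95% interval -0.61 to -0.21, edgeR adjusted p = 0.0352), so the Ctrl level was 1.33-fold that of PRMT3-KD. It passed in 9 of the 12 alternatives, DESeq2 and limma-voom among them, over which its adjusted p ranged from 2.75e-08 to 0.446. RIPK1 shares 330 exon bases, 168 of them between main transcripts, with an lncRNA gene on the opposite strand, which was not analysed here.

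The promoter of RIPK1 is shown because it differs from that of FAS in its motifs. It covers chr6:3063717-3063966 on GRCh38.p14, forward strand, before the first of its RefSeq starts, with GC box letters in capitals.
RIPK1 promoter: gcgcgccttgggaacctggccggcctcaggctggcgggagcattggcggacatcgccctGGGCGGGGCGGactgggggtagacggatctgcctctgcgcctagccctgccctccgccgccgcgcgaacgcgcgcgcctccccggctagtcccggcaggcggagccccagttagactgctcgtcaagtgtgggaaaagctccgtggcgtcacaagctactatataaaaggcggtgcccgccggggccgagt
It holds 2 GC boxes, which share 1 base. It also holds 1 TATA box match, near its end, and 1 CCAAT box match, letters found in 11.1% and 33.0% of all promoters. Its GC content was 70.4%.

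The 3′ UTRs of FADD and RIPK1 each hold the 7 bases CAGCTCA once, and those of the other 6 genes do not hold them. These letters were singled out by an earlier scan of 3′ UTRs against the fold changes of these same libraries, so they are not independent of them. The matches are shown in capitals with the bases around them, on GRCh37, forward strand. For FADD they lie in exon 2 at chr11:70052918-70052946, and for RIPK1 in exon 11 at chr6:3114138-3114166.
FADD site: gcggaggagacCAGCTCAgaggcccagga
RIPK1 site: gatcacagctgCAGCTCAccgccacatca
Of 12644 genes with a 3′ UTR in the reference, 17.5% hold the letters. Their median log2 fold change was -0.11, against 0.03 for genes without them, and 16.0% of them were called lower, against 7.55%. Of the 2 members with a match RIPK1 was called lower, and of the 6 without one APAF1 was. Of the 9 pathway genes with a match, 1 (CASP2) was called lower.

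APAF1, the scaffold of the apoptosome, had close replicates in both groups. It was at 25.1 and 25.3 CPM in Ctrl, and at 18.7 and 18.8 CPM in PRMT3-KD. The 2 groups lay apart by far more than either pair. APAF1 fell by 0.42 on the log2 scale (SE 0.0886, 95% interval -0.66 to -0.19, edgeR adjusted p = 0.0440). It did not pass with DESeq2 (adjusted p = 0.0739), with limma-voom (adjusted p = 0.0794) or with library totals alone (adjusted p = 0.0593), and over all 12 alternatives its adjusted p ranged from 5.18e-06 to 0.493. The exons of APAF1 share 750 bases with ANKS1B on the opposite strand, but 0 bases between the main transcripts. ANKS1B had a log2 fold change of -0.96 (adjusted p = 0.195), and its part in the APAF1 value was not tested.

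The APAF1 promoter is shown as that of the third called gene. It covers chr12:98645040-98645289 on GRCh38.p14, forward strand, and the capitals are a GC box read on the reverse strand (CCGCCC).
APAF1 promoter: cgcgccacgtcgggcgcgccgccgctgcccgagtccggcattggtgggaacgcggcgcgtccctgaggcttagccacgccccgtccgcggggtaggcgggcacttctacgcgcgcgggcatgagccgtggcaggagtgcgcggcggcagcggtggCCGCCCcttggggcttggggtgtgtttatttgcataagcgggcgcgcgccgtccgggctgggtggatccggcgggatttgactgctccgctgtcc
Its GC content was 73.6%. Beside the GC box it holds 1 CCAAT box match and 1 match of the hypoxia response core ACGTG, on the reverse strand as cacgt, letters that 18.7% of promoters hold. All 7 of the genes with a promoter in the reference table hold a GC box, from 1 match in FAS, APAF1 and CASP8 to 8 in CASP9. CASP8 stood apart with a GC content of 45.6%, and CASP9 was highest with 77.6%. A match is a stretch of letters and not evidence of binding.

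CASP9, the initiator caspase that APAF1 activates, had the opposite sign to APAF1. It was at 11.9 and 11.9 CPM in Ctrl, and at 16.1 and 15.8 CPM in PRMT3-KD. Replicates were close and the groups did not overlap. The log2 fold change was 0.43 (SE 0.102, 95% interval 0.15 to 0.70), which missed the threshold (edgeR adjusted p = 0.0566). Nor did it pass with DESeq2 (adjusted p = 0.118), with limma-voom (adjusted p = 0.0968) or in edgeR with library totals alone (adjusted p = 0.101). CASP9 shares 101 exon bases with CELA2B on the opposite strand, which was not analysed here. The log2 fold change of CASP9 was similar in size to that of APAF1, with fewer counts behind it (328 to 450 per library, against 475 to 695).

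CASP8, the initiator caspase of the receptor pathway, did not differ between the groups beyond its spread. It was at 18.8 and 17.1 CPM in Ctrl, and at 19.7 and 17.6 CPM in PRMT3-KD. The libraries of the groups interleaved. The log2 fold change was 0.05 (95% interval -0.26 to 0.37, edgeR adjusted p = 0.768), so a change of the size seen for FAS lies outside the interval. CASP8 shares 343 exon bases, 207 of them between main transcripts, with an unnamed lncRNA gene on its own strand, which was not analysed here.

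CASP6, an effector caspase that cleaves lamins, had the widest interval of the 8. It was at 15.4 and 14.3 CPM in Ctrl, and at 11.3 and 15.7 CPM in PRMT3-KD. PRMT3-KD library 1 was below both Ctrl libraries and library 2 above them. The log2 fold change was -0.14 (95% interval -0.65 to 0.37, edgeR adjusted p = 0.634). Without PRMT3-KD library 1 the value turned to 0.08, and without library 2 it was -0.40. CASP6 shares 98 exon bases, 92 of them between main transcripts, with MCUB, listed under its older symbol CCDC109B, on the opposite strand. CCDC109B had a log2 fold change of -0.48 (edgeR adjusted p = 0.0606), and its part in the CASP6 value was not tested.

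Other genes of the pathway were read from a list of 51, of which 43 were in the table and tested. Of these 43, 3 were higher, 3 were lower and 37 did not pass, with a median log2 fold change of 0.01. The share called, 6 of 43, is close to the 17.3% of all genes tested. Other tests set the counts below against other backgrounds: DESeq2 called 21.2% of all genes and limma-voom 21.7%, and 37.6% had an unadjusted edgeR p under 0.05. The called genes were spread over 5 of the 9 roles in the list.

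Among receptors, 1 of 5 others was called. TNFRSF11B, a secreted decoy receptor that binds TRAIL and RANKL, had 90 and 87 counts in Ctrl and 185 and 178 in PRMT3-KD, and rose by 1.08 (edgeR adjusted p = 0.0293). TNFRSF1A, the main TNF receptor, had a log2 fold change of 0.28 (adjusted p = 0.0827). With edgeR 0 of the 3 ligands were called (0 at an unadjusted p under 0.05, 1 with DESeq2 and 0 with limma-voom). TNFSF10 (TRAIL), the ligand of TNFRSF10B, was at 4.91 and 6.43 CPM in Ctrl, and at 7.20 and 17.8 CPM in PRMT3-KD, most of the difference lying in PRMT3-KD library 2. Its log2 fold change of 1.14 did not pass (95% interval -0.13 to 2.41, edgeR adjusted p = 0.163). Of the 6 adaptors 0 were called with edgeR, DESeq2 or limma-voom, and 2 had an unadjusted edgeR p under 0.05. With at least 10 counts required in every library, edgeR called 1 of the 6, where it called 2346 of 12615 genes. Of the 6 fitted changes 5 were below 0 and 1 above, from -0.66 to 0.01, with a median of -0.20. TRADD, the adaptor of TNFRSF1A, was at -0.01 and BID, which links CASP8 to the mitochondria, at -0.05. TNFRSF10A, the other TRAIL death receptor, was not analysed here.

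Of the 6 genes that add or remove linear ubiquitin or related chains on RIPK1 and its complex, 2 were called, with opposite signs. CYLD, a deubiquitinase, was at 60.1 and 66.1 CPM in Ctrl and at 117 and 93.0 CPM in PRMT3-KD, and rose by 0.73 (edgeR adjusted p = 0.0365). With library totals only CYLD did not pass (adjusted p = 0.0607, range over 12 alternatives 1.77e-12 to 0.291), which left 1 of the 6 called, where 13.1% of all genes were. RNF31 (HOIP), the catalytic subunit of the linear ubiquitin ligase, was at 35.5 and 37.7 CPM in Ctrl and at 25.7 and 25.2 CPM in PRMT3-KD, and fell by 0.52 on the log2 scale (adjusted p = 0.0306). CYLD, like FAS and TNFRSF10B, was higher in PRMT3-KD library 1 than in library 2.

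Of the 7 inhibitors of caspases and cell death, 0 were called with edgeR, 1 with DESeq2 and 2 with limma-voom, and 4 had an unadjusted edgeR p under 0.05. CFLAR, the FADD-binding inhibitor of CASP8, was at 57.0 and 58.5 CPM in Ctrl and at 59.6 and 58.7 CPM in PRMT3-KD (log2 fold change 0.04). XIAP, which blocks CASP9, had a log2 fold change of 0.25 (edgeR adjusted p = 0.0744). Over the 7 inhibitors, 5 fitted changes were above 0 and 2 below, from -0.83 to 0.70. Of the 5 genes released from mitochondria, AIFM1, a flavoprotein of the mitochondrial intermembrane space, was called, at 85.2 and 86.9 CPM in Ctrl and 134 and 138 CPM in PRMT3-KD (log2 fold change 0.66, adjusted p = 0.0180). CYCS, the cytochrome c that binds APAF1, was at -0.06.

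Among 4 other caspases, 1 was called. CASP2, an initiator caspase activated through PIDD1, had the largest change of the list among the called genes. It was at 120 and 121 CPM in Ctrl, and at 44.3 and 33.3 CPM in PRMT3-KD, a log2 fold change of -1.64 (edgeR adjusted p = 0.0170). Of the 6 caspase substrates 1 was called with edgeR, 3 with DESeq2 and 2 with limma-voom. PARP1, a DNA repair enzyme, fell from 246 and 248 CPM to 166 and 174 CPM (log2 fold change -0.54, adjusted p = 0.0208). The fall of CASP2 was larger in size than those of RIPK1 and APAF1, a difference that was not tested.

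**Figure D4:**
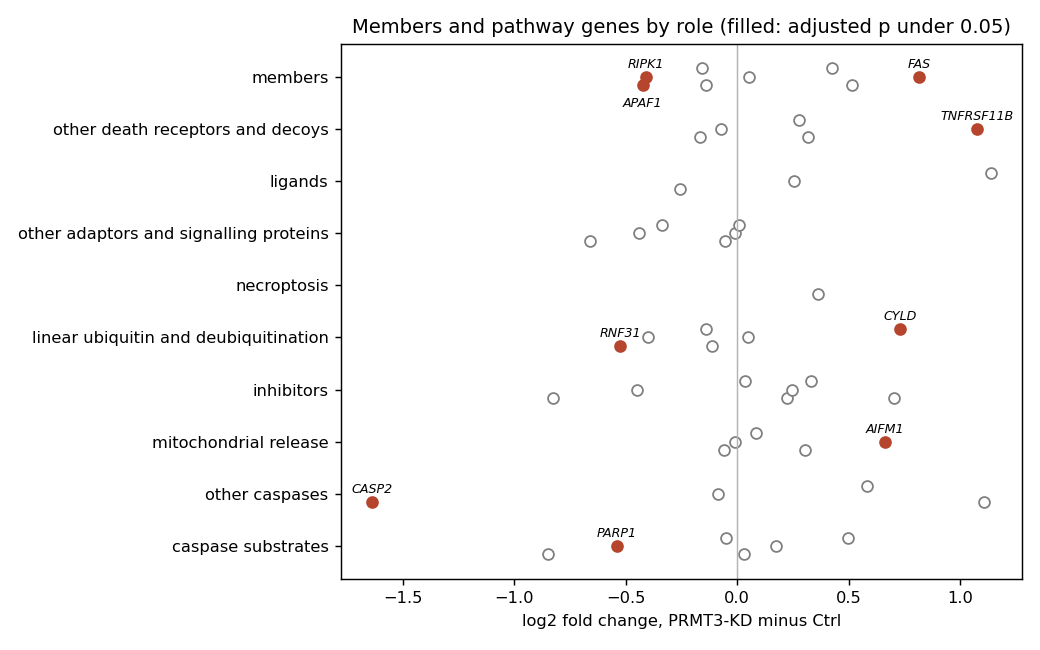
Log2 fold change of PRMT3-KD against Ctrl for the 8 genes (top line, labelled members) and the 43 other pathway genes tested, by role; filled points had an adjusted p under 0.05 and are named. Called genes lie on both sides of 0, from CASP2 (-1.64) to TNFRSF11B (1.08).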

How the data were processed

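Total RNA of 4 libraries was sequenced. The authors deposited whole-number counts per gene, made after alignment to hg19 with TopHat, with Cufflinks named for quantification; versions, annotation, strand setting and any filter are not given in the sources used here. The submitters' processing notes also name CASAVA and DESeq2. Libraries were grouped by their labels, and the time comes from the study's methods. The table had 15576 entries, of which 1 duplicate was removed, and no column was left unmatched.

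The test was edgeR 4.0.16 under R 4.3.3: filterByExpr (minimum count 10, minimum total 15), TMM factors (0.955 to 1.02), glmQLFit and glmQLFTest, and Benjamini-Hochberg adjustment over 13172 genes. CPM use TMM-scaled totals. SE and 95% intervals come from the fit. An exact two-sided permutation test of 2 against 2 libraries cannot go below p = 0.333. Alternatives were DESeq2 1.42.0, limma-voom with group weights (limma 3.58.1), other scalings and filters, the replicate number as a block, and each library left out.

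Gene positions and lengths came from GENCODE lifted to GRCh37, and promoters, 250 bases before the first listed start, from RefSeq on GRCh38.p14 (7 of 8 genes matched; TNFRSF10B had no entry). Some genes are not reported here and were left out of the pathway list and its counts. Members and gene lists were chosen with earlier results of these data known. Named genes are the 8 members, PRMT3, called pathway genes, those pathway genes not called that act where a member acts, genes overlapping a member, and the 5 nearest to FAS; TNFSF10 was added after its values were seen; TAGLN, CNN1 and the markers come from a marker list.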

Additional observations from a re-analysis of the deposited data

How the results depend on the processing

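With 2 libraries a group, the calls rest on the spread of both pairs. The number of genes called was 2278, and between 0 and 8841 when 1 library was left out: 0 without either Ctrl library (1842 and 1868 with an unadjusted edgeR p under 0.05), when the spread comes from the PRMT3-KD pair alone, and 8809 to 8841 without either PRMT3-KD library, when it comes from the close Ctrl pair. In these fits the lone library is assumed to vary like the other group. Likewise 0 to 6 of the 8 genes and 0 to 31 of the 43 pathway genes were called. With a change of over 1.5-fold required as well, 1441 genes and 1 of the 8 were called. Of the 8 genes, 1 was called with library totals only (RIPK1), where 13.1% of all genes tested were called. DESeq2 called 10 of the 43 pathway genes, where it called 21.2% of all genes. Both limma-voom and the stricter filter called 9 of the 43, against 6 in the main test. Among all genes, limma-voom called 21.7%, and the stricter filter called 2346 of 12615.

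The replicate numbers did not pair the libraries (correlation of same-numbered deviations across genes 0.058). With the number as a replicate block, 1656 genes, 5 pathway genes and 1 of the 8 genes were called: FAS (log2 fold change 0.81, adjusted p = 0.0383), with RIPK1 at adjusted p = 0.0751 and APAF1 at 0.101. Of the 6 genes of linear ubiquitin and deubiquitination, 1 was called with this block. It was CYLD (edgeR adjusted p = 0.0372), so RNF31 no longer passed.

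FAS, TNFRSF10B, FADD, RIPK1, APAF1 and CASP9 kept their direction in all 12 alternatives. When 1 library was left out, the log2 fold change of CASP6 ranged from -0.4038 to 0.0792, and that of CASP8 from -0.0259 to 0.1287, turning negative without Ctrl replicate 2 (-0.0143) and without PRMT3-KD replicate 1 (-0.0259). The cause was not tested. Scaling moved the median of all genes by less than 0.1.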
